A study of Mus musculus with 4 samples.

Results

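The mouse genes named Zfp, Zkscan or Zscan followed by a number encode zinc finger proteins, most of them transcription factors. They were chosen by symbol alone, with no measured value, and came to 216 of the 9615 genes with acetylation values, 206 of them Zfp, 6 Zkscan and 4 Zscan genes. In leukaemic mouse bone marrow, chromatin was precipitated with an antibody to H3K9ac, the acetylated lysine 9 of histone H3 found at active promoters and enhancers, and sequenced. The tg library came from Gfi1b fl/fl mice with the NUP98/HOXD13 transgene and the Mx-Cre transgene. The WT library came from Gfi1b fl/fl mice with the NUP98/HOXD13 transgene and no Mx-Cre, so the floxed allele and the leukaemia fusion are common to both. Mx-Cre is a Cre recombinase under an interferon-inducible promoter that is active in blood and in other tissues. The labels give neither the age and number of the animals nor an induction of Cre. There was 1 H3K9ac library per genotype, so no difference below has a replicate check, and "higher" or "lower" describes these 2 libraries.

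Zinc finger proteins of the C2H2 type read DNA through tandem fingers, each folded around a zinc ion. Many mammalian members also carry a KRAB domain, which recruits the corepressor TRIM28 and with it histone methylation that silences retroelements and some imprinted genes. Their genes multiplied by tandem duplication and lie in clusters. The SCAN domain of the Zkscan and Zscan proteins lets them pair with each other. Some proteins with these names belong elsewhere: the CCCH fingers of the Zfp36 group bind AU-rich elements of mRNA and speed its decay.

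The value of each gene is a mean over its probes, the regions in which reads were counted, scaled to 1000000 reads. The totals behind the scale were 163712 reads in tg and 309649 in WT, so 1 read is worth 6.11 scaled reads in tg and 3.23 in WT, and a floor of 3 reads stands at 18.3 in tg and 9.69 in WT. Reads per probe could be recovered for 214 of the members and for 9492 of all genes. The log2 ratio of tg over WT weighs a gene's probes alike. Folds were computed from reads summed over probes, with exact 95% intervals that cover counting error only, since reads with no molecular identifiers may be copies of 1 molecule. Gfi1b itself had 108 reads in tg and 12 in WT over 4 probes, but the places of the probes are not given, so this does not check the deletion. Of the erythroid markers, 12 of 16 had a value and 11 of them were at least 2-fold higher in tg, with a summed level of 1662 scaled reads in tg and 434 in WT, and Rhag, Epor and Alas2 had 0 WT reads. All 5 neutrophil markers with a value (of 14) were lower, at a summed 46.4 in tg and 223 in WT. Of 8 stem and progenitor markers 5 were lower and 1 was higher, with a summed level of 377 in tg and 527 in WT and Cd34 at 0 reads in tg. Of the 6 monocyte markers with a value, 1 was higher and 3 were lower, at a summed 165 in tg and 329 in WT. Few markers of other lineages had a value: 2 of 8 for B cells, both within 2-fold, 3 of 8 for T and NK cells, 1 of them higher, and 3 of 8 for megakaryocytes, 2 of them lower, with Selp at 0 reads in tg. In bulk tissue fewer cells of a type and less acetylation per cell cannot be told apart. The part of these differences in the results below was not tested.

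The promoter of 177 members was in the RefSeq promoter table (GRCm38.p6), in 224 windows from 250 bases before to 50 after a start. The windows of the highest and the lowest well covered member with a single window and a single probe, neither of which shares its values with another gene, are shown first, because they stand for the ends of the range described below. They run 5′ to 3′ on the gene's strand and end 30 bases after the start. Capitals would mark any of 7 motifs searched on both strands, and neither window held one. Zfp949 lies at chr9:88547770-88548049 on the plus strand and Zfp619 at chr7:39517516-39517795 on the plus strand.
Zfp949: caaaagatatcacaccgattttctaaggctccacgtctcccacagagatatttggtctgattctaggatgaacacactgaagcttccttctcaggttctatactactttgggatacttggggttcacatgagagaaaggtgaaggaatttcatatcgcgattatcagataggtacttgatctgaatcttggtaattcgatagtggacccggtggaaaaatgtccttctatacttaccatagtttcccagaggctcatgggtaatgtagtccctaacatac
Zfp619: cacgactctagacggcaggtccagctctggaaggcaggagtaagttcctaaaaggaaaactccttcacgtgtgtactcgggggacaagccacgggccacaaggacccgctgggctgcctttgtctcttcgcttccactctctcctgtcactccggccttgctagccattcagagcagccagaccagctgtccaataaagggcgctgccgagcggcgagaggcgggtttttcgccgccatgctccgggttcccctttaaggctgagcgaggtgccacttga

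Of the motifs searched, the one most over-represented at members, as a ratio of shares, was the core of the site bound by ZNF143, searched as ACTACA, any 2 bases and TCC. ZNF143 is an activator whose mouse gene Zfp143 is itself a member. The motif was present in 31 of the 224 member windows (13.8%), against 4.32% of the 8545 windows of genes in the table and 1.98% of all 32851 RefSeq windows. The stretches below surround it in the 2 gene clusters that held it most often, on chromosome 13 (67096613 to 67789082) and on chromosome 7 (29768552 to 30169727). Positions are in GRCm38, the build named in the submitters' processing notes, unless RefSeq is named. For each cluster the 2 members with the motif and the highest log2 ratio come first, followed by 1 of the 2 with the lowest on chromosome 13 and by both on chromosome 7, to show that the same letters stand at members on either side of equality. Capitals mark the motif, which reads as its reverse complement, beginning with GGA, where it lies on the opposite strand. The first 3 lie on the minus strand of chromosome 13, at chr13:67553137-67553217, chr13:67500512-67500592 and chr13:67269131-67269211. Of the next 4, Zfp84 (chr7:29768490-29768570) and Zfp790 (chr7:29815929-29816009) lie on the plus strand, and Zfp146 (chr7:30169830-30169910) and Zfp566 (chr7:30090546-30090626) on the minus strand.
Zfp748: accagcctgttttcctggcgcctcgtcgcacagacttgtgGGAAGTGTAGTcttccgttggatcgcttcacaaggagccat
Zfp58: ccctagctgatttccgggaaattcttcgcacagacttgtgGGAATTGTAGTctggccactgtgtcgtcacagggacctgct
Zfp458: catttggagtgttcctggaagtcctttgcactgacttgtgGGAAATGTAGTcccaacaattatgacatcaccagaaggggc
Zfp84: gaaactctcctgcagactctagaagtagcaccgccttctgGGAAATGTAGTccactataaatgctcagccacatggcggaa
Zfp146: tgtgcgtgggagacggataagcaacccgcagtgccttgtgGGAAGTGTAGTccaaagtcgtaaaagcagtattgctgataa
Zfp790: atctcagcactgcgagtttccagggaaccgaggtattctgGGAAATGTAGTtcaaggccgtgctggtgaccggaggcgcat
Zfp566: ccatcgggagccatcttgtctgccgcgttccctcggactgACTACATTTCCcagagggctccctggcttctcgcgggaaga

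The share of promoters with the motif differed between clusters. On chromosome 13 it was in 12 of 13 members with a window, and Zfp459 was the exception. In the chromosome 7 cluster it was in 6 of 8, and in the larger cluster of chromosome 17 (21008941 to 23599487) in 0 of 12. Outside clusters 10 of 94 members (10.6%) held it. It lay within 100 bases before the start in 26 of the 31 windows, at a median position of -45 bases from the start, and on the strand opposite to the gene in 24 of them. The most frequent form, ACTACATTTCC, was read on the opposite strand at 13 members. A match describes the letters of a window and is no measurement of binding.

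Members with the ZNF143 motif lay on both sides in the comparison of the libraries. Of the 31, 3 were at least 2-fold higher and 6 lower in tg, with a median log2 ratio of -0.08. Of the 146 with a window and without the motif, the median was 0.04, and 9 were higher and 27 lower. Among all genes 16.5% were higher and 15.8% lower. The motif was held by 3 of 12 higher members (25%), 6 of 33 lower (18.2%) and 22 of 132 within 2-fold (16.7%). Median levels of members with the motif were 48.9 scaled reads in tg and 48.4 in WT, below the 61.1 in tg and 61.4 in WT of those without it.

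As a ratio of shares, the other 6 motifs differed less between members and genes of the table. CCGGAAG, the core of ETS sites, was in 22.3% of member windows and 19.7% of those of table genes. GGGCGG (SP) was in 50.9% against 63.9%, the NRF1 motif in 8.04% against 11.1%, and TGACGTCA (CRE) in 6.25% against 3.53%. The YY1 motif was in 2.68% against 2.31%. The GATA letters AGATAA were in 5.36% of member windows, 6.24% of table windows and 11.2% of all RefSeq windows. By member, they were in 0 of the 12 that were 2-fold higher and had a window, and in 2 of the 33 that were 2-fold lower. Their share of all 177 members with a window was 6.78% (12 members), so these small counts show no difference by direction. The ETS letters were likewise in 0 of the 12, and in 10 of the 33 and 46 of the 177. None of these letter strings contains another, and sites that overlap were not looked for. Member windows held a median of 17 CpG dinucleotides and 57.5% G+C, between the 21 and 61% of table genes and the 7 and 52.7% of all RefSeq windows.

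Zinc finger genes had slightly lower H3K9ac levels per probe than all genes in both libraries. Probe lengths are not given, so levels of different genes are compared per probe only. Their median level was 55.0 scaled reads in tg, against 62.6 for all genes, and 54.9 in WT, against 61.3 for all genes. Only 5.09% of the members were in the highest decile of level (962 of the 9615 genes). Most members rested on 1 probe (173 of 216, 80.1%, against 77.2% of all genes), and the median member had 11 reads in tg and 20 in WT. Levels in tg and WT correlated across the 216 members about as across all genes, with Spearman coefficients of 0.56 and 0.57. That is a description of libraries that share their probes. It rests on shallow counts: 21 members had 3 or fewer reads in tg, and 1 did in WT.

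**Figure D1:**
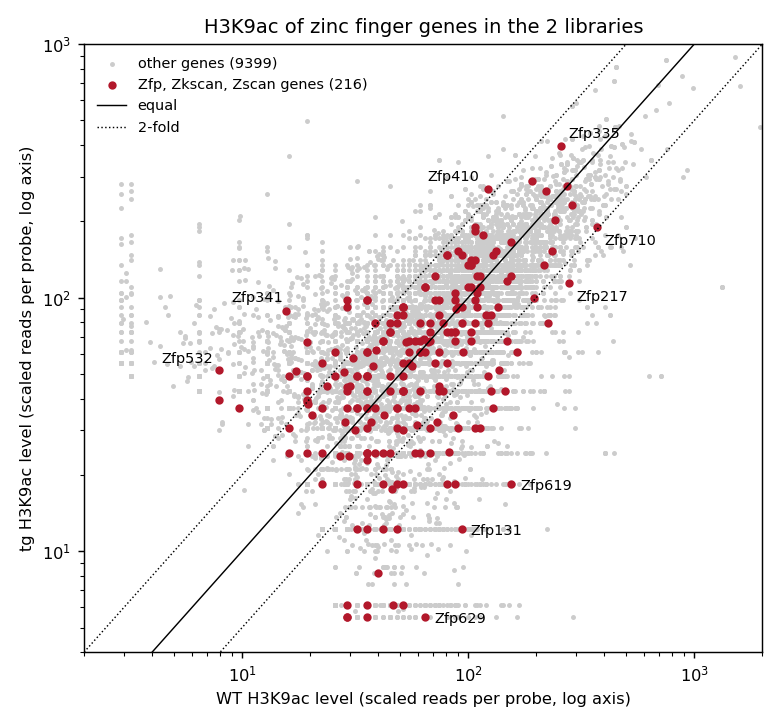
H3K9ac level (scaled reads per probe, log axes) in the tg library (vertical) and the WT library (horizontal) for the 216 zinc finger genes (red) and the other 9399 genes (grey), with lines of equality and of 2-fold difference. Zfp532 and Zfp341 stand above the upper 2-fold line and Zfp619, Zfp131 and Zfp629 below the lower one, while Zfp335 has the highest tg level, 397 scaled reads.

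As a family, the members did not move to one side. Their median log2 ratio was 0.0019, against 0.045 for all genes, and 109 members were above 0 and 107 below it. At least 2-fold higher in tg were 19 members, 8.80%, against 16.5% of all genes. At least 2-fold lower were 40 members, 18.5%, against 15.8% of all genes. The other 157 lay within 2-fold. The SD was 1.07 against 1.27 for all genes on the log2 scale, and the quartiles were -0.64 and 0.60 against -0.60 and 0.68, so the middle of the distribution was about as wide. Members ran from -3.55 to 2.71. In the plot of cumulative shares the members' curve lies above that of the other genes at the upper 2-fold line.

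**Figure D2:**
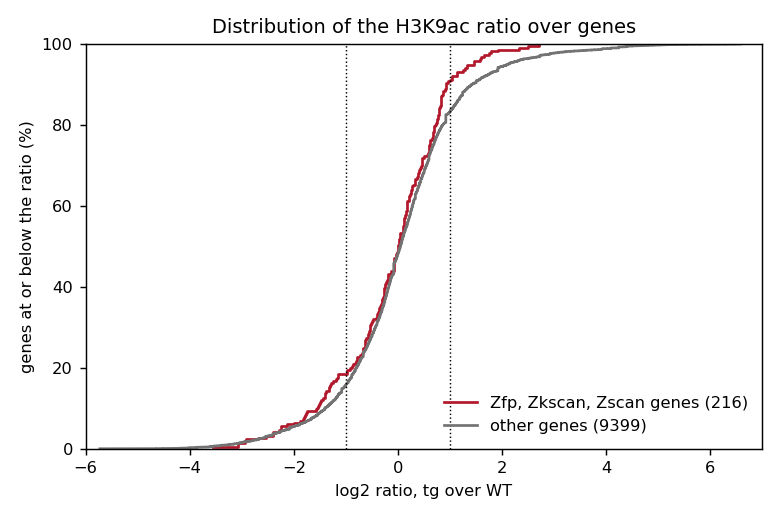
Share of genes (%) at or below a given log2 ratio of tg over WT, for the 216 zinc finger genes (red) and the other 9399 genes (grey). Dotted lines mark 2-fold differences, beyond which lie 8.80% of the members on the higher side and 18.5% on the lower side.

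The smaller share on the higher side was also seen among well covered genes. Of the 96 members at or above the median level of all genes (62.1 scaled reads), 4 (4.17%) were 2-fold higher and 12 (12.5%) lower, against 10.2% and 10.8% of all such genes. Among members with 1 probe, 12 (6.94%) were higher and 31 (17.9%) lower, against 14.3% and 16.1%. The counting interval lay above 1 for 13 of 214 members (6.07%), against 12.8% of all genes, and below 1 for 26 (12.1%), against 12.7%. Thus the higher side was thinner than the background at each of these settings, and the lower side was near it. Summed over the members, 2985 reads in tg stood against 6185 in WT, a fold of 0.913 (95% interval 0.874 to 0.954), where all genes gave 0.981. These sums count a probe at each gene that holds it, and with each probe of the members counted once the fold was 0.906. Without the 5 members with the most reads (Zfp36l2, Zfp217, Zfp207, Zfp91 and Zfp710) it was 0.983.

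The largest deficit in reads belonged to the CCCH group of mRNA decay factors. Zfp36l2, which mice need to keep their blood stem cells, had 2, 7, 11 and 34 reads at its 4 probes in tg and 9, 29, 50 and 251 in WT. Listed by size, since probes cannot be paired between libraries, each tg count was below the WT count of its rank. The sum of 54 reads in tg and 339 in WT gave a fold of 0.301 (0.222 to 0.402), and the log2 ratio was -1.40. Of the 8 stem and progenitor markers, 5 were lower and 1 was higher in the same library, as given above. A link between them and Zfp36l2 was not tested. Zfp36, which encodes tristetraprolin, had 25 reads in tg and 62 in WT (0.763, 0.459 to 1.23). Zfp36l1 had 26 in tg and 41 in WT (1.20, 0.704 to 2.01), so neither interval leaves out 1. Over the 3 genes the median log2 ratio was -0.63 and the fold of summed reads 0.449 (0.360 to 0.557), most of it from Zfp36l2.

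Regulators known from blood and immune cells held the most members on the higher side. Of 13 listed genes 10 had a value. Their median log2 ratio was 0.88, with 5 genes at least 2-fold higher and 2 lower. For this list and those below, the shares of all genes are 16.5% higher and 15.8% lower. The 5 higher genes include Zfp341 and Zfp318. With summed reads their log2 ratios were 0.51 and 0.82, which is within 2-fold. Over all 10 genes of the list, summed reads were nearly equal after scaling, 293 in tg and 559 in WT (0.991, 0.858 to 1.14). Zfp410, whose product activates the chromatin remodeller gene Chd4, had 44 reads in tg and 38 in WT at 1 probe. That is 269 scaled reads in tg and 123 in WT, a fold of 2.19 (1.39 to 3.47), with the highest level per probe of the members on the higher side. Chd4 itself had 24 reads in tg and 39 in WT over 2 probes (1.16, 0.670 to 1.98). Zfp335, a regulator of T cell maturation, had 65 reads in tg and 80 in WT (1.54, 1.09 to 2.16). Its values are identical to those of the neighbouring Gm11458, so the probe cannot be given to either gene. Zfp609, studied in thymocytes for its effect on the Rag genes, had 7 and 17 reads at its 2 probes in tg and 2 and 18 in WT, a fold of 2.27 (1.20 to 4.33). Zfp521, a regulator of progenitors and B cells, rested on 8 reads in tg and 5 in WT (3.03, 0.873 to 11.8). Zfp318, needed for alternative splicing of IgD in B cells, had 14 in tg and 15 in WT (1.77, 0.789 to 3.92). The intervals of these last genes hold 1.

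Zfp341 shows how averaging over probes and summing reads can part. In humans its product activates STAT3. Its 3 probes held 8, 14 and 27 reads in tg and 0, 2 and 63 in WT. The mean over probes gave a log2 ratio of 2.50, while the sums of 49 reads in tg and 65 in WT gave a fold of 1.43 (0.964 to 2.10). In WT 1 probe thus held 63 of the 65 reads.

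On the lower side of the list stood Zfp217 and Zfp608. Zfp217, whose human counterpart is an oncogene that binds the LSD1 and CoREST corepressors, had 14 and 25 reads in tg and 70 and 106 in WT. With 39 reads in tg and 176 in WT its fold was 0.419 (0.288 to 0.596). Zfp608, a relative of Zfp609, had 1, 2 and 12 reads in tg and 7, 8 and 51 in WT, a fold of 0.430 (0.228 to 0.761). Zfp608 and Zfp609, which resemble each other in sequence, thus lay on opposite sides, each with an interval that leaves out 1. Zfp407 had 26 reads in tg and 77 in WT (0.639, 0.393 to 1.01). Zfp384, a fusion partner in human B cell leukaemia, was level with 9 reads in tg and 17 in WT (1.00, 0.393 to 2.38).

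**Figure D3:**
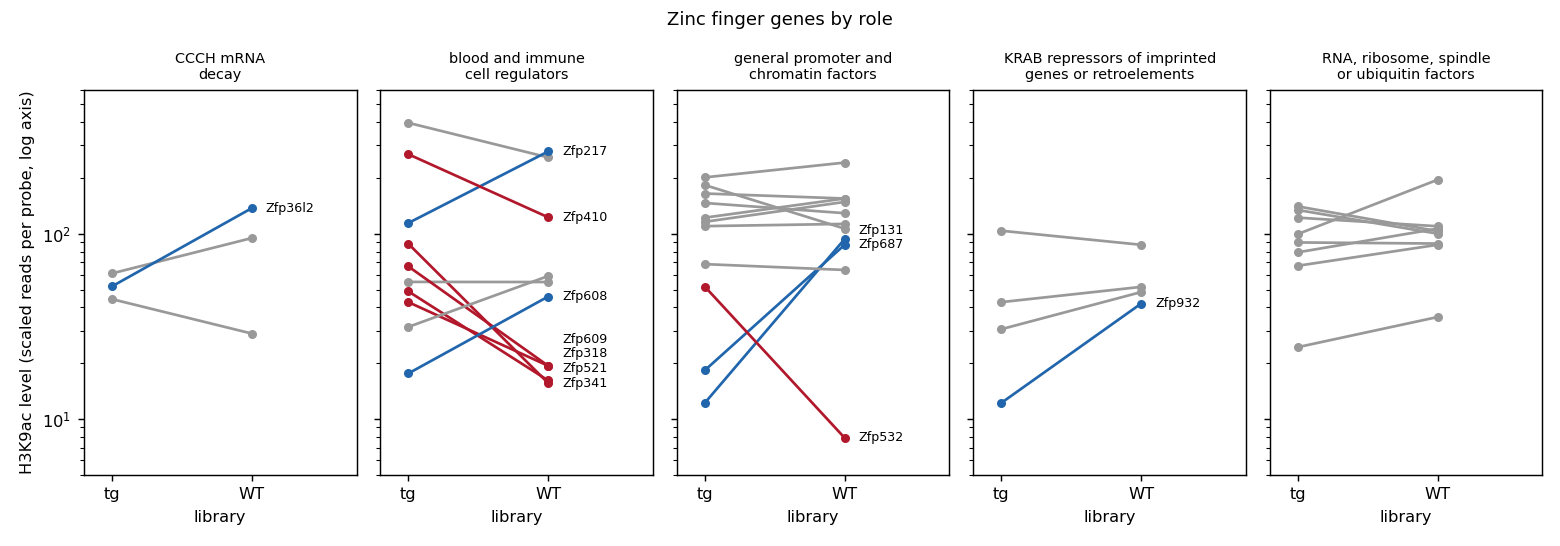
H3K9ac level (scaled reads per probe, log axis) of each listed zinc finger gene in the tg library (left of each panel) and the WT library (right), by role. Lines join the values of 1 gene, red where tg is at least 2-fold higher, blue where it is at least 2-fold lower and grey otherwise, and genes beyond 2-fold are named. The 8 factors of RNA, the ribosome, the spindle or ubiquitin all lie within 2-fold.

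Factors of general promoters and chromatin were mostly level, with 3 exceptions of low depth. Of 12 listed, 11 had a value, 1 was higher and 2 were lower, with a median log2 ratio of -0.04 and a fold of summed reads of 0.985 (0.839 to 1.15). Zfp532 had 8 and 9 reads in tg and 2 and 3 in WT, the highest log2 ratio of all members (2.71), and a fold of 6.43 (2.28 to 22.3). Zfp687 had 3 reads in tg and 27 in WT (0.210, 0.0408 to 0.683). Zfp592 was level with 33 reads in tg and 75 in WT (0.832, 0.535 to 1.27). Zfp131, which carries a BTB domain, had 2 reads in tg and 29 in WT (0.130, 0.0151 to 0.516). Zfp143, the gene of the factor that binds the motif shown above, had 27 reads in tg and 48 in WT (1.06, 0.638 to 1.74). Zfp148, Zfp281 and Zfp263 lay between 0.781 and 1.13 with intervals that hold 1. Zfp280d had 30 reads in tg and 33 in WT, a fold of 1.72 (1.01 to 2.91).

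KRAB repressors with known targets were thinly covered. Of 7 listed, 4 had a value, with 31 reads in tg and 71 in WT in all (0.826, 0.523 to 1.28). Zfp809, which silences murine leukaemia virus through its primer binding site, had 17 reads in tg and 27 in WT (1.19, 0.609 to 2.27). Zfp568, a repressor of a placental Igf2 transcript, had 5 reads in tg and 15 in WT (0.630, 0.179 to 1.83). Zfp708 had 7 in tg and 16 in WT (0.827, 0.288 to 2.13). Zfp932, at 2 reads in tg and 13 in WT, was beyond 2-fold on the lower side with an interval that holds 1 (0.291, 0.0319 to 1.29).

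Factors of RNA, the ribosome, the spindle and ubiquitin varied least. All 8 listed had a value and all lay within 2-fold, with log2 ratios from -0.97 to 0.44. Zfp91, a ubiquitin ligase, had 33 reads in tg and 123 in WT and was the only one of them whose interval left out 1 (0.507, 0.335 to 0.750). Zfp207, a spindle assembly factor, had 58 reads in tg and 102 in WT (1.08, 0.765 to 1.50). Zfp598, which marks collided ribosomes, had 13 in tg and 33 in WT (0.745, 0.360 to 1.45). Zfp622, a factor of large ribosomal subunit maturation, had 20 in tg and 34 in WT (1.11, 0.607 to 1.99).

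Among the members that the table names Zkscan or Zscan, 1 of 10 was higher and 2 were lower, with a median log2 ratio of 0.36 and a fold of summed reads of 1.12 (0.915 to 1.38). Zkscan5 had 6 and 7 reads at its 2 probes in tg and 2 and 3 in WT, a fold of 4.92 (1.65 to 17.6). Zkscan1, a gene known for its abundant circular RNA, had 31 reads in tg and 33 in WT at 1 probe (1.78, 1.05 to 2.99). Zkscan3, which encodes a repressor of autophagy genes, was level with 16 in tg and 27 in WT (1.12, 0.564 to 2.16). Zscan2 had 3 reads in tg and 15 in WT, and Zkscan6 had 4 in tg and 18 in WT. Both were beyond 2-fold lower with intervals that hold 1.

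Among the 96 well covered members, those at or above the median level, the counting interval lay above 1 for 8 (8.33%) and below 1 for 14 (14.6%), against 11.9% and 14.2% of all genes at that level. The share below 1 was thus near the background. The 12 at each end of the log2 ratio are given as a description, since the intervals come from the same reads that placed them there. All 12 at the lower end had intervals below 1. Zfp619 was the lowest, with 3 reads in tg and 48 in WT (0.118, 0.0236 to 0.367). Zfp1 (5 in tg, 35 in WT), Zfp513 (6 in tg, 40 in WT), Zfp715 (5 in tg, 33 in WT) and Zfp810 (7 in tg, 45 in WT) had folds of 0.270 to 0.294. Zfp367 combined a similar fold with more reads, 13 in tg and 70 in WT (0.351, 0.178 to 0.640). Zfp628, Zfp68, Zfp422, Zfp868, Zfp217 and Zfp36l2 completed the 12. On the upper end 5 of the 12 had an interval above 1. These were Zfp949 with 16 reads in tg and 9 in WT (3.36, 1.40 to 8.63), Zfp410, Zkscan1, and Zfp784 and Zfp748 with 16 in tg and 11 in WT each (2.75, 1.20 to 6.56). The other 7 had folds from 1.72 to 1.82. Among them Zfp668 has the same values as its neighbour Zfp646, and Zfp322a the same as 4930586N03Rik. The last place at the upper end was a tie at a log2 ratio of 0.78. Zfp180 was taken and Zfp280d, whose interval of 1.01 to 2.91 lies above 1, was not.

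**Figure D4:**
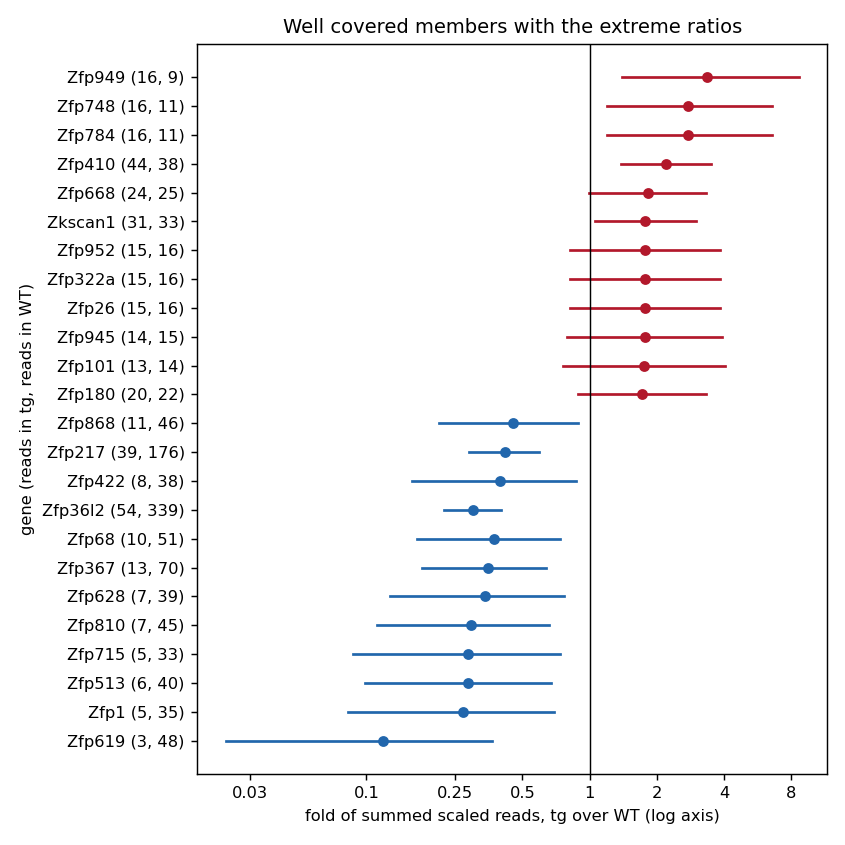
Fold of summed scaled reads, tg over WT (log axis), with exact 95% counting intervals for the 12 members with the highest (red) and the 12 with the lowest (blue) log2 ratio among those at or above the median level of all genes, ordered by log2 ratio. Reads in tg and then in WT stand beside each gene. All 12 blue intervals lie below 1, and 5 of the 12 red ones lie above it. Zfp180 tied for the last red place with Zfp280d, which is not shown and has an interval above 1.

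In tg 4 members had 0 reads, and in WT none did. Of the 9492 genes with recovered reads, 94 had 0 reads in tg and 46 in WT. Zfp629 had 0 reads in tg and 20 in WT, at least 3.52-fold lower against a floor of 3 reads in the tg library. The floor leaves out the error of the WT count, and the nearer end of the counting interval, which includes it, was 2.61-fold lower. Zfp580 had 0 in tg and 11 in WT (at least 1.94-fold lower by the floor, 1.33-fold by the interval) and shares its values with Gm15510. Zfp493 and Zfp704 each had 0 in tg and 9 in WT (at least 1.59-fold lower by the floor, 1.04-fold by the interval). No 1-probe gene had fewer than 9 reads, both libraries summed. A 1-probe gene with 0 tg reads was therefore present only with 9 or more WT reads, where the interval already lies below 1. For such genes an interval below 1 follows from their entry and is no support for a difference. The WT total is 1.89 times the tg total, so a gene of equal level is read less often in tg.

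The most strongly acetylated members included 3 described above, Zfp335, Zfp217 and Zfp410. Zfp710 had 189 scaled reads in tg and 371 in WT, the highest WT level of the members, from 31 reads in tg and 115 in WT (0.510, 0.331 to 0.764). Zfp62 had 47 reads in tg and 59 in WT (1.51, 1.01 to 2.25). Zfp236 was level with 45 in tg and 85 in WT (1.00, 0.682 to 1.45), as was Zfp644, whose product binds the H3K9 methyltransferases G9a and GLP, with 43 in tg and 68 in WT (1.20, 0.797 to 1.78). Zfp706 (38 in tg, 89 in WT), Zfp592 and Zfp362 (25 in tg, 73 in WT) had folds below 1 with intervals that hold it. Of the 10 members with the highest level, Zfp410 and Zfp217 were beyond 2-fold, a share near that of the well covered members given above.

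Members came from 20 chromosomes, with 50 on chromosome 7, 27 on chromosome 13 and 27 on chromosome 17. On chromosome 7, 3 were at least 2-fold higher and 11 lower, where 21.0% of its other genes were higher and 16.5% lower. Chromosome 17 had 4 higher and 3 lower of 27, with 18.1% and 17.7% of its other genes. Chromosome 13 had 2 higher and 5 lower of 27, with 17.0% and 15.6% of its other genes. Chromosome 18 had 3 higher and 2 lower of 10, with 15.7% and 12.3% of its other genes. On chromosome X, Zfp182 had 4 reads in tg and 11 in WT and Zfp275 had 10 in tg and 8 in WT. The labels do not give the sex of the animals, and the Y-linked genes Uty and Ddx3y had 0 and 1 reads in tg, against 28 and 22 in WT.

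Runs of at least 3 members with neighbours at most 500 kb apart gave 17 clusters with 101 members. Inside clusters 9 were higher and 18 lower (8.91% and 17.8%), with a median log2 ratio of 0.11. The 115 members outside them had a median of -0.08, and 10 were higher (8.70%) and 22 lower (19.1%). With each probe counted once, as in all cluster sums below, summed reads were level inside clusters, 1060 in tg and 1998 in WT (1.00, 0.931 to 1.08), and lower outside, 1849 in tg and 4072 in WT (0.859, 0.812 to 0.908). The 5 members with the most reads lie outside clusters. Cluster members were the more weakly acetylated, at a median of 48.9 scaled reads in tg and 51.7 in WT, against 61.1 in tg and 61.4 in WT outside.

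Between clusters the summed reads went either way. The interval lay above 1 in 3 clusters, below 1 in 3 and held 1 in 11. For 2 clusters of chromosome 7 this was by a narrow margin. The lower end was 1.0008 at 29768552 to 30169727, and the upper end was 0.991 at 12478293 to 12984340. Each such interval pools the reads of different genes as 1 count and covers counting error only. Comparable runs of other genes were not summed, so these counts have no background. Cluster medians of the log2 ratio ran from -1.14 to 0.73, with 9 above 0 and 8 below.

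The 2 clusters of chromosome 17 were both higher in tg. The larger one had 14 members with 120 reads in tg and 172 in WT (1.32, 1.04 to 1.68) and a median log2 ratio of 0.38. Zfp946 had 6 reads in tg and 3 in WT and Zfp229 had 15 in tg and 9 in WT, while Zfp160 (5 in tg, 21 in WT) and Zfp13 (4 in tg, 20 in WT) were more than 2-fold lower, so the cluster was not uniform. Zfp942 and Zfp943 have the same values, and the reads of Zfp944 recur among those of its neighbour Zfp758. The cluster at 32771236 to 33631779 had 6 members with 79 reads in tg and 103 in WT (1.45, 1.07 to 1.96) and the highest median, 0.73. In it 4 of 6 members, Zfp81, Zfp952, Zfp101 and Zfp472, had ratios between 0.65 and 1.33 on the log2 scale, and each of their intervals holds 1. The interval of the sum thus left out 1, while that of every member held it. The other genes of chromosome 17 had a median log2 ratio of 0.11.

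On chromosome 7, 5 clusters pointed in different directions. The 9 members at 29768552 to 30169727 had 100 reads in tg and 145 in WT (1.30, 1.00 to 1.69), with Zfp84 (9 in tg, 7 in WT) and Zfp146 (13 in tg, 12 in WT) beyond 2-fold. The 6 members at 12478293 to 12984340 had 38 reads in tg and 106 in WT (0.678, 0.455 to 0.991) and a median log2 ratio of -0.74, and Zfp606, Zfp128 and Zfp446 were the 3 beyond 2-fold lower. Zfp446 had 0 and 2 reads at its 2 probes in tg and 9 and 17 in WT (0.145, 0.0167 to 0.581). The 9 members at 127233061 to 127885996 summed to 120 reads in tg and 214 in WT (1.06, 0.841 to 1.33), although they include Zfp629 at 0 reads in tg.

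The clusters on chromosomes 8 and 9 with an interval below 1 were small. At chromosome 8, 69610857 to 69791178, the 3 members had 35 reads in tg and 114 in WT (0.581, 0.386 to 0.855) and the lowest median, -1.14. Zfp868 had 11 reads in tg and 46 in WT (0.452, 0.211 to 0.886), and the intervals of Zfp866 and Zfp963 hold 1. At chromosome 9, 22055460 to 22307638, the 4 members had 34 reads in tg and 102 in WT (0.630, 0.415 to 0.938), with Zfp810 at 7 in tg and 45 in WT and Zfp809 above equality.

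The cluster with the ZNF143 motif in nearly all promoters, on chromosome 13 at 67096613 to 67789082, was level as a whole. Its 14 members had 112 reads in tg and 213 in WT (0.995, 0.784 to 1.26) and a median log2 ratio of -0.26. Zfp748 was at 16 reads in tg and 11 in WT, and Zfp493 was at 0 in tg and 9 in WT. Of the 14 members, 11 lay within 2-fold. The reads of Zfp595 and of Zfp456 recur as the reads of Zfp953, which overlaps both, so these 3 genes hold the values of the same probes. Near-identical copies in such clusters can exchange reads, so values of single members are uncertain.

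**Figure D5:**
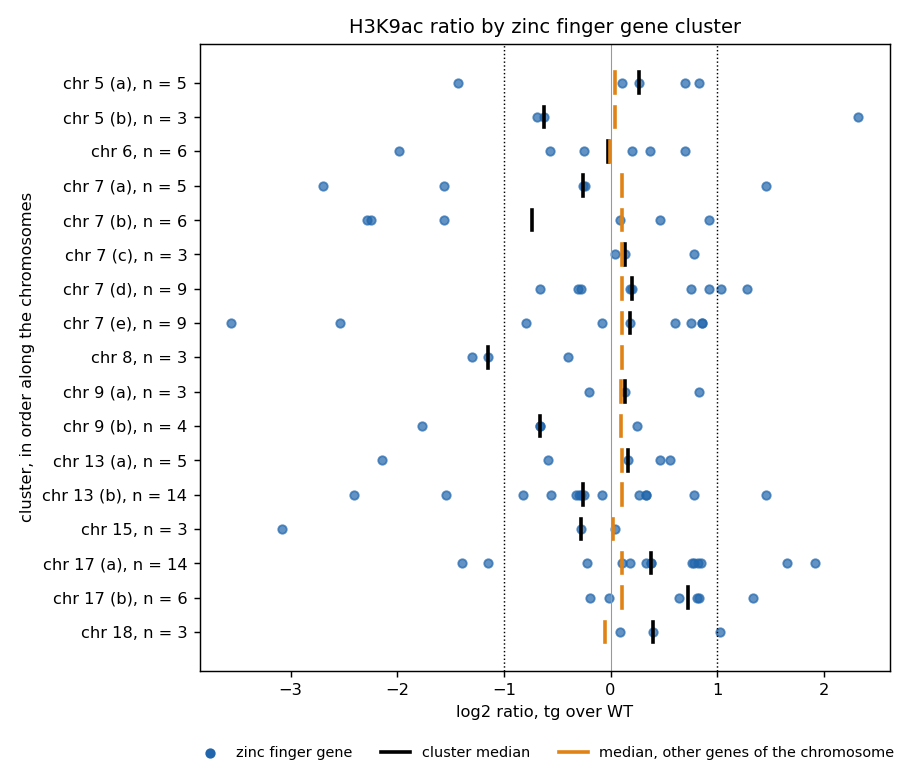
log2 ratio of tg over WT of each zinc finger gene (blue points) in the 17 clusters, in order along the chromosomes, with the cluster median (black) and the median of the other genes of the chromosome (orange). Letters tell clusters of 1 chromosome apart, and dotted lines mark 2-fold. Medians run from -1.14 on chromosome 8 to 0.73 in the second cluster of chromosome 17, and most clusters hold members on both sides of 0.

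Neighbours within a cluster often differed, but pairs of unrelated genes were not compared. Whether neighbours differ more or less than other pairs was therefore not tested. Of 55 pairs of adjacent members of 1 cluster, at most 100 kb apart and with no recurring probes, 29 had ratios of the same sign and 26 of opposite sign, and the median difference between the partners was 0.87 on the log2 scale. In 31 pairs both lay within 2-fold, in 23 only 1 was beyond it, and in none were both beyond 2-fold on the same side. In 1 pair the partners were beyond 2-fold on opposite sides. Across the pairs the Pearson coefficient was -0.07, as a description of genes that share libraries and thin counts. An example is the group on chromosome 5 at 145194946 to 145247302, where Zkscan5 had 13 reads in tg and 5 in WT, and beside it Zkscan14 had 13 in tg and 38 in WT and Zfp655 had 22 in tg and 67 in WT.

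Zinc finger genes of other names, taken for comparison, also lay on both sides. Of 56 Zbtb, Klf, Ikzf, Sp and Prdm genes, 8 were higher and 7 lower (14.3% and 12.5%), with a median log2 ratio of 0.09. The Klf genes, which encode Krüppel-like activators and repressors, had 251 reads in tg and 354 in WT over 11 genes (1.34, 1.14 to 1.58). Of 12 Klf genes with a value, 4 were at least 2-fold higher and 2 lower (33.3% and 16.7%). Klf1, the erythroid member, had 40 reads in tg and 31 in WT, and Klf3, its target in erythroid cells, had 58 in tg and 30 in WT. Also higher were Klf5 (7 in tg, 2 in WT) and Klf9 (9 in tg, 2 in WT). The lower genes were Klf11 (6 in tg, 34 in WT) and Klf2 (3 in tg, 15 in WT). By the 2-fold limit Zbtb genes came closer to the Zfp genes, with 2 of 30 higher and 4 lower (6.67% and 13.3%). By counting interval they did not. It lay above 1 for 3 of 28 (10.7%) and below 1 for 1 (3.57%), against 6.07% and 12.1% of the members.

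The corepressor through which KRAB zinc finger proteins act was level. Trim28 had 27 reads in tg and 51 in WT at 1 probe, a fold of 1.00 (0.604 to 1.63). Of 18 listed genes of that pathway and of heterochromatin, 16 had a value, 3 were at least 2-fold higher and 1 was lower, with a median log2 ratio of 0.13 and a fold of summed reads of 1.02 (0.893 to 1.17). Those higher were Chd3, a remodeller of the NuRD complex (21 reads in tg, 3 in WT), Uhrf1, which recruits DNA methylation to replicated DNA (12 in tg, 8 in WT), and the deacetylase gene Hdac1 (14 in tg, 12 in WT). Atf7ip, whose product stabilises the H3K9 methyltransferase SETDB1, had 5 reads in tg and 25 in WT. Cbx3, which encodes the heterochromatin protein HP1 gamma, had the most reads of the list, 67 in tg and 167 in WT (0.759, 0.563 to 1.01).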

How the data were processed

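H3K9ac and rabbit IgG were profiled in 1 library each per genotype, and the deposited table holds the 2 H3K9ac libraries. Library codes in its column names tie them to the samples. No column matched an IgG library, so IgG was not analysed here. Per the labels' protocols, red cells were lysed, and cells were fixed in 1% formaldehyde and sonicated for 20 min. The submitters' processing notes name CASAVA 1.8.2, BWA, FastQC, SAMtools, mm10 and GRCm38. How probes were defined and where they lie was not stated there or in the labels.

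The authors' deposited log2 values are, per the file headers, means and standard deviations over a gene's probes, and a further deposited column gives the number of probes. The linear values are reads scaled to 1000000, with 0 reads entered as 0.9 of a read. In 1-probe genes 100% of the values in both libraries were whole reads within 0.01. Whole reads were recovered from mean and standard deviation for 98.7% of genes (1 to 4 probes). This scale and the recovery were worked out from the values. The fewest reads of any 1-probe gene, both libraries summed, were 9.

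The comparison was the difference of the log2 values, and 2-fold was a limit of size, not a test. With 1 library per group no test between genotypes was possible and no p-value is given. Folds of summed reads have exact conditional binomial (Clopper-Pearson) 95% intervals (SciPy 1.17.1). Sums over clusters count each probe once, leaving out neighbours within 100000 bases that have identical values or whose reads recur among those of another member (3 members). Sums over other lists count a probe at each gene that holds it. Such identical values were found for 24 members, for 20 of them with a gene outside the family. Zfp652 (9 probes) and Zfp800 (13 probes) had no recovered reads and entered with their log2 values only, at 1.58 and -1.17.

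The members, gene lists and alternatives were chosen with earlier results of these data known. Named were the 12 highest and 12 lowest members by log2 ratio at or above the median level of all genes, the 10 with the highest level, those with 0 reads in a library, the role lists, and the extremes of each cluster, genes with a shared probe once. Some members of the chromosome clusters were named after their values were seen. A member that this rule names is not reported here. All 216 members matched a RefSeq gene, 9 of them under another symbol. Recovery and intervals were tested on simulated data. Python 3.11.15, pandas 2.3.3, numpy 2.4.6 and matplotlib 3.10.9 were used.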

Additional observations from a re-analysis of the deposited data

How the results depend on the processing

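The fold of summed reads (0.913) stayed below 1 and fewer members were 2-fold higher (19) than lower (40) under the alternatives run, with these larger shifts. The median log2 ratio, 0.0019, had no stable sign: it was -0.0065 with summed reads, -0.0431 centred on the median of all genes, and -0.0023 with shared probes counted once. Counting each probe once also where reads recur at a neighbour, chosen after seeing the data, gave a fold of summed reads of 0.906. Requiring the median level of all genes left 4 higher and 12 lower. Using members with 1 probe only left 12 higher. A 3-fold threshold left 8 higher and 20 lower. Leaving out the 5 members with the most reads moved the fold of summed reads to 0.983. With neighbours at most 250 kb apart, the median of the cluster on chromosome 7 at 12478293 to 12984340 was 0.0894 instead of -0.74. Over all alternatives, 65 other cluster values were counted as staying within their spread or sign. Among them the cluster on chromosome 13 at 21362827 to 21960779 went from 0.165 to -0.234 with summed reads. At 250 kb the clusters on chromosome 7 at 24081924 to 24515682 and chromosome 15 at 75616679 to 75975868 had no value. The larger cluster of chromosome 17 then held 9 members instead of 14. The settings with the median level, 1 probe and the 3-fold threshold use fewer genes or a stricter limit by construction. The cause of the other shifts was not tested. Of the 95 named members, Zfp341 moved to a log2 ratio of 0.51 with summed reads. Those with 0 tg reads moved with a pseudocount of 10, Zfp629 to -2.27, Zfp580 to -1.55, and Zfp493 and Zfp704 to -1.33. Leaving out members with the values of a non-member, an alternative chosen after seeing the data, gave 18 higher and 37 lower. No paired analysis was possible because each genotype has 1 H3K9ac library and no replicate number pairs them. Depth limits single members: the median member has 11 reads in tg and 20 in WT.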

Other observations

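The table covered zinc finger genes unevenly along the genome. Of 424 RefSeq protein-coding genes whose symbol follows the same rule, 212 (50%) had a value, against 35.9% of all 21900 protein-coding genes. The zinc finger genes were matched by symbol or synonym and place, and all protein-coding genes by current symbol only. The second share thus misses renamed genes and is a low estimate. Among RefSeq clusters of at least 5 such genes, 9 of 10 had a value on chromosome 7 at 127233061 to 127885996 and 5 of 5 on chromosome 5 at 138085050 to 138619743. By contrast, 1 of 16 had one on chromosome 4 at 145510759 to 147849126 and 0 of 6 on chromosome 11 at 50811085 to 51072799. The large clusters on chromosomes 13 (66670274 to 67827000) and 17 (21008941 to 23611019) each had 14 of 24. Genes without a value were not analysed here, and a level below the limit of the table and a lack of probes cannot be told apart.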
